A study of Mus musculus with 8 samples.

Results

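The 10 genes described here encode enzymes of glycolysis from hexokinase to lactate dehydrogenase: Hk1, Hk2, Gpi1, Pfkl, Aldoa, Gapdh, Pgk1, Eno1, Pkm and Ldha. They were chosen by name, and all 10 were found among the 14457 genes of the expression table. The libraries are bulk RNA of the femoral cortical bone shaft of mice at postnatal day 7. In 4 CKO libraries both alleles of Slc26a2, a plasma membrane sulfate transporter, were floxed (Slc26a2 fl/fl), and in 4 control libraries only one was (Slc26a2 fl/+). Every library of either group carried the Col2.3kb-Cre transgene, so the controls also have Cre and a floxed allele. The Col2.3kb promoter is a fragment of a type I collagen promoter active in osteoblasts and osteocytes, so marrow, muscle and vascular cells of the shaft are not its target. Whether each library is a separate mouse is not stated in the labels, so the p-values measure the spread between these libraries, which may be technical. Levels are FPKM, fragments scaled by transcript length and library size, as computed by the authors.

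Glycolysis splits glucose into pyruvate in the cytosol, and lactate dehydrogenase turns pyruvate into lactate while it regenerates the NAD that glyceraldehyde-3-phosphate dehydrogenase consumes. Osteoblasts are known to rely on glycolysis and to release lactate even when oxygen is present. Several of these genes are textbook targets of hypoxia-inducible factor, which binds DNA at a core motif read as ACGTG or GCGTG. Some steps have isozymes with a known tissue bias: muscle uses PFKM, enolase 3 and aldolase A, and granulocytes contain hexokinase 3.

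Some of the 10 enzymes have near-identical processed copies elsewhere in the mouse genome, and the sequence shows how far a read can be assigned to them. In the transcripts of GENCODE M21 (GRCm38), the coding sequence of Gapdh had 74 other annotated genes at 95% identity or more over at least 50% of its length, of which 70 are annotated as pseudogenes. A 100-base stretch of Gapdh is shown because 40 other annotated genes hold exactly these letters. Counted from the A of the start codon, it spans bases 820 to 919 of the longest annotated Gapdh coding sequence (1077 bases). Below it are 2 copies that differ slightly, Gm3695 on chromosome 12 and Gm12182 on chromosome 11, with the differing bases in capitals (5′ to 3′, GENCODE M21 transcripts).
Gapdh: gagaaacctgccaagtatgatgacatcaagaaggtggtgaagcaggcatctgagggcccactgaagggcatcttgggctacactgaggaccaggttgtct
Gm3695: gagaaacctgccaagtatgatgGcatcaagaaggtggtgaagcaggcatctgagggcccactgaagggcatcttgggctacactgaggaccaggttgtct
Gm12182: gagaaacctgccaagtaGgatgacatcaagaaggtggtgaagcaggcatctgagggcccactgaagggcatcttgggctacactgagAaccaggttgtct
Gm3695 differed from Gapdh at 1 base of this stretch and Gm12182 at 2 bases.

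Of all 100-base stretches in this longest Gapdh coding sequence, 93.9% occurred unchanged in the transcripts of another gene, and 60 of 978 were its own. Shorter coding forms were not examined, so the share may differ for them. For Pgk1 the share was 100% of 1152 stretches, and a pair of processed pseudogenes, Gm5537 and Pgk1-rs7, carried it at 100% identity. For Eno1 it was 69.3%, with 3 copies that include the coding gene Eno1b. It was 11.6% for Gpi1, 11.2% for Pkm and 2.24% for Ldha, and 0% for Hk1, Hk2, Pfkl and Aldoa. Over whole transcripts, untranslated regions included, the share was 85.8% for Gapdh, 67.0% for Pgk1 and 59.0% for Eno1. The levels of Gapdh, Pgk1 and Eno1 are therefore uncertain, because the sources used here do not say how reads that fit several genes were counted, and the read length is not given there either.

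**Figure D1:**
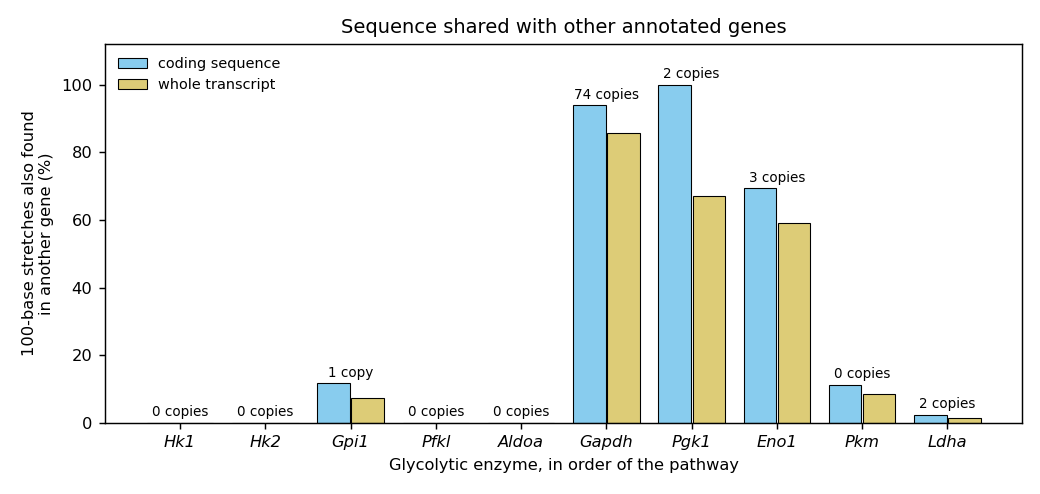
Percent of the 100-base stretches of each enzyme that also occur in the annotated transcripts of another gene, for the coding sequence (blue) and the whole transcript (yellow); the label above each pair gives the number of copies at 95% identity or more over at least 50% of the coding sequence. Gapdh, Pgk1 and Eno1 stand at 69.3% to 100% of the coding sequence, and the other 7 enzymes at 11.6% or less.

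Windows of 250 bases before the transcript start are shown for Ldha and Pgk1, 2 of the 3 enzymes with the lowest p-values below, and for Hk2, whose level hardly differed. Each lies outside every annotated exon of its gene. They are from RefSeq (GRCm38.p6), read 5′ to 3′ on the strand of the gene, with every ACGTG or GCGTG, on either strand, in capitals (the reverse complements are CACGT and CACGC).
Ldha, chr7:46845554-46845803, plus strand: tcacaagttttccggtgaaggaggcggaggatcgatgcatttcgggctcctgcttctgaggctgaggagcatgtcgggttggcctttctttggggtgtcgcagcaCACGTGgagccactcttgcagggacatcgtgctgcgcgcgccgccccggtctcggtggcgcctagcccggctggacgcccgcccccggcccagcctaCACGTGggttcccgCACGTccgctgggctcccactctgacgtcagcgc
Pgk1, chrX:106186850-106187099, plus strand: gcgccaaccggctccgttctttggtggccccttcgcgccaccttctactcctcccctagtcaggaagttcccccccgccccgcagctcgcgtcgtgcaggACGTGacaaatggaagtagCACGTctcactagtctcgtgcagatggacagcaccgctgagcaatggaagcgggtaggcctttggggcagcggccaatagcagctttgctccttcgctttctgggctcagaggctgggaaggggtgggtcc
Hk2, chr6:82774455-82774704, minus strand: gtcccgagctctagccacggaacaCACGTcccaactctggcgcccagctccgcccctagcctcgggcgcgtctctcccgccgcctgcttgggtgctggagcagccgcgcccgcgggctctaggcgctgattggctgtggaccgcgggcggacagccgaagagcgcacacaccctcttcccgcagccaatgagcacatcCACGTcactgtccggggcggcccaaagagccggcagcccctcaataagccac
The Ldha window shown held 5 matches, all to ACGTG, since CACGTG reads the same on both strands and was counted on each. A second Ldha window, at another annotated start, held 1 match, to GCGTG. The Pgk1 and Hk2 windows held 2 matches each, again all to ACGTG. The window of Gapdh, the enzyme with the lowest p-value, is not shown and held 2 matches, both to GCGTG. At least 1 window of 9 of the 10 enzymes held a match to either motif, and 13 of their 17 windows did, overlapping windows of Aldoa and of Eno1 with the same matches counted separately, against 38.6% of 32841 windows of the same length over all genes. Gpi1 was the enzyme without a match in its window. ACGTG alone was found in 16.6% of all windows, and in at least 1 window of Hk2, Aldoa, Pgk1, Pkm and Ldha. Both motifs contain CG, and the windows of the enzymes ranged from 49.6% to 71.2% GC. The share over all genes was not matched for GC, so the 2 shares are not a test of enrichment. Genes with several annotated starts have more windows in which to match, and a match is a description of letters, not a binding site.

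Among other properties of the libraries, FPKM totals and neutrophil and erythroid markers separated the genotypes, and osteoblast and muscle markers overlapped. Over all genes, FPKM came to a total of 352283 to 379669 per control library and of 431612 to 598419 per CKO library. Slc26a2 was at 4.37, 7.49, 4.85 and 4.85 FPKM in control replicates 1 to 4 and at 2.93, 2.08, 0.706 and 0.8289 FPKM in CKO replicates 1 to 4, so the groups did not overlap. The osteoblast markers were all detected in every library, and their summed level was 37024 to 46138 FPKM in control and 12132 to 41859 FPKM in CKO. Skeletal muscle markers, 12 of 12 detected in every library, summed to 55.9 to 3330 FPKM in control and 150 to 9097 FPKM in CKO. Neutrophil markers (11 of 11) summed to 897 to 4167 and 6422 to 28154 FPKM, and erythroid markers (10 of 10) to 3852 to 13069 and 18038 to 70834 FPKM, with no overlap between the groups for either. In bulk tissue, fewer cells of a type and less RNA per cell cannot be told apart. The Y-linked genes were listed at 0 in control replicate 1 and CKO replicates 1 to 3.

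By level, the 10 enzymes spanned a wide range, and many of their ranges over the libraries overlapped. Averaged over the 8 libraries, Aldoa, Ldha, Pkm and Eno1 were at 276, 238, 195 and 146 FPKM, and Pgk1 and Gpi1 at 93.6 and 92.5 FPKM. Hk1, Gapdh, Pfkl and Hk2 followed at 24.7, 20.1, 10.4 and 3.31 FPKM. Aldoa, Ldha and Pkm overlapped in range (173 to 427, 167 to 349 and 163 to 239 FPKM), as did Pgk1 and Gpi1 (64.5 to 130 and 74.3 to 126 FPKM), so the order within these sets is not fixed. Eno1 (106 to 265 FPKM) overlapped both sets. Gapdh (7.67 to 38.5 FPKM) overlapped Hk1 (19.8 to 30.4 FPKM), and its mean was below that of Hk1 in control (12.2 and 25.5 FPKM) and above it in CKO (28.0 and 23.9 FPKM). It also overlapped Pfkl (7.85 to 15.4 FPKM) and was below it in control replicates 1 and 2. The lowest Pfkl value, 7.85 FPKM, was above the highest Hk2 value, 4.54 FPKM. Aldoa lay at the 98.8th percentile of the mean level of all genes in the table and Hk2 at the 31.4th. Gapdh, commonly taken as an abundant housekeeping transcript, lay at the 79.5th percentile.

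**Figure D2:**
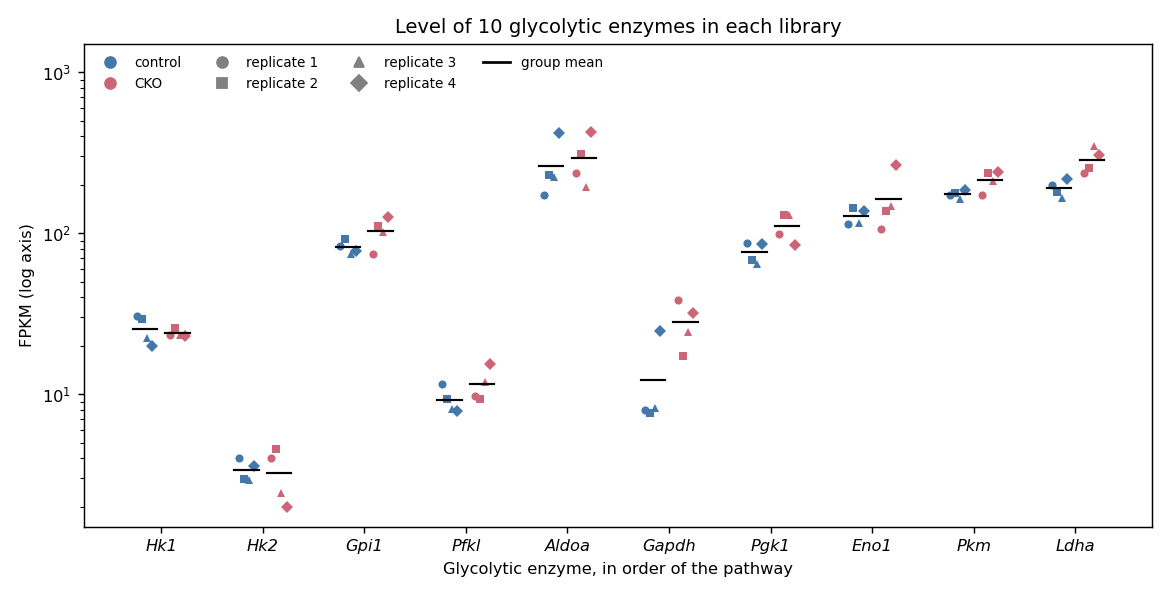
FPKM (log axis) of each glycolytic enzyme in 4 control (blue) and 4 CKO (red) libraries, with symbols for the replicate number and a black line at each group mean. Ldha is the only enzyme of the 10 with all CKO libraries (236 to 349 FPKM) above all control libraries (167 to 218 FPKM), and Gapdh in control replicate 4 (24.8 FPKM) sits among the CKO values.

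The hexokinases, which phosphorylate glucose and trap it in the cell, had the log2 fold changes nearest to 0 as deposited, but -0.53 for Hk1 and -0.43 for Hk2 with equal FPKM totals. Hk1 (ENSMUSG00000037012, chromosome 10, 62268855 to 62379908), the broadly expressed form, had 30.4, 29.5, 22.4 and 19.8 FPKM in control replicates 1 to 4 and 23.5, 25.7, 23.5 and 22.9 FPKM in CKO replicates 1 to 4. All CKO values lay inside the control range. The control libraries averaged 25.5 ± 5.22 FPKM (SD, n = 4) and the CKO libraries 23.9 ± 1.22 FPKM (SD, n = 4), with a log2 fold change of -0.07 (95% interval -0.51 to 0.36). Hk2 (ENSMUSG00000000628, chromosome 6, 82725025 to 82774454), the inducible form that is prominent in muscle, had 4.03, 2.95, 2.93 and 3.6 FPKM in control and 4.01, 4.54, 2.42 and 1.995 FPKM in CKO. CKO replicate 2 was the highest of the 8 libraries and CKO replicates 3 and 4 the lowest. Its log2 fold change was -0.08 (95% interval -0.62 to 0.45). The adjusted p, from limma with Benjamini-Hochberg adjustment over all 12748 genes tested, was 0.851 for Hk1 and 0.857 for Hk2.

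Gpi1, Pfkl and Aldoa, of the steps up to the triose phosphates, had higher means in CKO, with overlapping groups and intervals that include 0. Gpi1 (ENSMUSG00000036427, chromosome 7, 34201330 to 34230336), which isomerises glucose 6-phosphate, had 82.9, 92.0, 74.3 and 77.1 FPKM in control and 74.4, 111, 102 and 126 FPKM in CKO. CKO replicates 2 to 4 were above every control, and CKO replicate 1 was at the lower end of the controls. Pfkl (ENSMUSG00000020277, chromosome 10, 77986947 to 78010083), the liver-type phosphofructokinase of the committed step, had 11.6, 9.29, 8.05 and 7.85 FPKM in control and 9.75, 9.36, 11.9 and 15.4 FPKM in CKO, with CKO replicates 3 and 4 the highest of all. Aldoa (ENSMUSG00000030695, chromosome 7, 126795234 to 126800751), which cleaves fructose 1,6-bisphosphate, had 173, 230, 224 and 417 FPKM in control and 236, 310, 193 and 427 FPKM in CKO. The libraries with the highest Aldoa in each group, control replicate 4 and CKO replicate 4, also had the highest summed muscle markers of their group (3330 and 9097 FPKM), and its lowest value in each group, in control replicate 1 and CKO replicate 3, came with the lowest muscle sum (55.9 and 150 FPKM). The log2 fold changes were 0.32 for Gpi1 (95% interval -0.16 to 0.79), 0.30 for Pfkl (-0.19 to 0.78) and 0.17 for Aldoa (-0.57 to 0.91). The limma adjusted p was 0.381, 0.424 and 0.784. The Aldoa value ran from -0.16 with the muscle covariate to 0.67 with the Y-linked and 1.03 with the marrow covariate, and from -0.03 without CKO replicate 4 to 0.42 without control replicate 4 (0.0028 without control replicate 1, 0.35 without CKO replicate 3). That of Pfkl was 0.16 without CKO replicate 4 and 0.04 with the marrow covariate.

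Among the enzymes of the payoff phase, Gapdh had the widest difference, and the widest spread among controls. Gapdh (ENSMUSG00000057666, chromosome 6, 125161715 to 125166467), which oxidises glyceraldehyde 3-phosphate, had 7.98, 7.67, 8.22 and 24.8 FPKM in control replicates 1 to 4 and 38.5, 17.4, 24.5 and 31.8 FPKM in CKO replicates 1 to 4. Of the 4 controls, 3 lay within 7.67 to 8.22 FPKM, and control replicate 4 was above CKO replicates 2 and 3. The means were 12.2 ± 8.44 and 28.0 ± 9.14 FPKM (SD, n = 4 each), a log2 fold change of 1.26 with an SE of 0.38 (95% interval 0.42 to 2.10). The limma adjusted p was 0.0771, and it stayed between 0.0528 and 0.699 under the alternatives tried. The 0.699 came with the marrow covariate, a fit in which no gene had a lower adjusted p and the unadjusted limma p of Gapdh was 9.7e-05. The marrow level did not overlap between the groups, so that covariate and genotype cannot be told apart. The log2 fold change was 2.53 with the marrow covariate, 0.82 with equal FPKM totals and 0.83 with the length trend removed. Since the stretches shown above leave little of Gapdh unique, its FPKM covers an unknown part of the transcript. The part of its copies in the difference was not tested.

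Pgk1, which makes the first ATP of the pathway, came close to separating the groups. Pgk1 (ENSMUSG00000062070, chromosome X, 106187100 to 106203699) had 86.5, 68.2, 64.5 and 86.3 FPKM in control and 98.4, 130, 130 and 85.0 FPKM in CKO. CKO replicates 1 to 3 were above every control, and CKO replicate 4 lay inside the control range. The means were 76.3 ± 11.7 and 111 ± 22.8 FPKM (SD, n = 4 each), a log2 fold change of 0.52 with an SE of 0.22 (95% interval 0.03 to 1.01) and a limma adjusted p of 0.172. Without CKO replicate 4 the log2 fold change was 0.64 and the limma adjusted p 0.0465, in a fit in which 14.8% of all genes passed. CKO replicate 4 also had the highest muscle sum and the highest erythroid sum of the 8 libraries. It was also the only CKO library with Y-linked expression, so leaving it out widens the difference in Y-linked level between the groups. With the Y-linked covariate the Pgk1 log2 fold change was 0.27 (limma adjusted p = 0.574).

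The remaining payoff enzymes had overlapping groups. Eno1 (ENSMUSG00000063524, chromosome 4, 150236721 to 150248879), the ubiquitous enolase, had 115, 144, 115 and 137 FPKM in control and 106, 138, 147 and 265 FPKM in CKO. Its CKO mean rested on replicate 4, and without that library the log2 fold change went from 0.28 (95% interval -0.34 to 0.90) to 0.02. Pkm (ENSMUSG00000032294, chromosome 9, 59656368 to 59679375), which makes pyruvate and whose splice forms are not separated in a value per gene, had 174, 178, 163 and 186 FPKM in control and 172, 237, 210 and 239 FPKM in CKO. Pkm varied least of the 10 among control libraries, with a coefficient of variation of 5.44%, against 69.3% for Gapdh. CKO replicates 2 to 4 were above every control, and its log2 fold change was 0.28 (95% interval -0.17 to 0.72). The limma adjusted p was 0.563 for Eno1 and 0.417 for Pkm.

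Ldha, which reduces pyruvate to lactate, was the enzyme of the 10 whose groups did not overlap. Ldha (ENSMUSG00000063229, chromosome 7, 46841475 to 46855627) had 199, 181, 167 and 218 FPKM in control replicates 1 to 4 and 236, 253, 349 and 306 FPKM in CKO replicates 1 to 4. The lowest CKO library, replicate 1 at 236 FPKM, was a little above the highest control, replicate 4 at 218 FPKM. The means were 191 ± 22.1 and 286 ± 51.4 FPKM (SD, n = 4 each), a log2 fold change of 0.57 with an SE of 0.22 (95% interval 0.09 to 1.05). The limma adjusted p was 0.137, so the difference did not pass over all genes. Groups that did not overlap, with CKO higher, were found for 12.7% of all genes tested. Ldha kept few shared stretches (2.24%), and is the best resolved of the 3 enzymes with the lowest p. Summed neutrophil and erythroid markers were also higher in every CKO library than in any control. Control replicate 4, however, had the highest Ldha of the controls and the lowest of both sums among the 8 libraries (897 and 3852 FPKM). The part of these cells in the Ldha level was not tested.

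In all, 0 of the 10 enzymes passed the threshold in limma (adjusted p under 0.05), where 4.53% of all genes did. At an unadjusted p under 0.05 there were 3, Gapdh, Ldha and Pgk1, all higher in CKO, against 25.3% of all genes in either direction, 15.9% higher and 9.45% lower. The log2 fold change was above 0 for 8 of the 10, against 51.1% of all genes, with a median of 0.29 beside 0.01 over all genes tested. The intervals are wide, so a missed threshold does not show that the enzymes had the same level in both groups. In the authors' deposited table, the fold changes of 10 of 10 enzymes had the sign found here, and the p-value, with no adjustment named, was 0.00935 for Gapdh, 0.02 for Ldha and 0.0234 for Pgk1.

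The direction depended on how the libraries were scaled. With each library rescaled to the same FPKM total, 3 of the 10 were above 0, Gapdh (0.82), Ldha (0.10) and Pgk1 (0.05), with a median of -0.17 where the median of all genes fell to -0.37. With quantile normalization 3 were above 0 (Gapdh at 1.10, Pfkl at 0.24 and Pgk1 at 0.02), and Ldha was at -0.14. With median-of-ratios scaling 8 were above 0 and the median was 0.30. Gapdh and Pgk1 were above 0 under each of these scalings. Together the 10 enzymes made up 0.238% to 0.310% of summed FPKM in the control libraries and 0.199% to 0.286% in the CKO libraries, which overlap. The enzymes also differed in transcript length, from 1420 bases for Gapdh to 5513 bases for Hk2 (3086 bases at the median of all genes). The 2 enzymes with a value below 0 had the longest transcripts, and Gapdh, with the highest, the shortest. With the trend against length removed, 9 of 10 were above 0, with Hk1 at 0.16, Hk2 at 0.26 and Aldoa at -0.18.

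**Figure D3:**
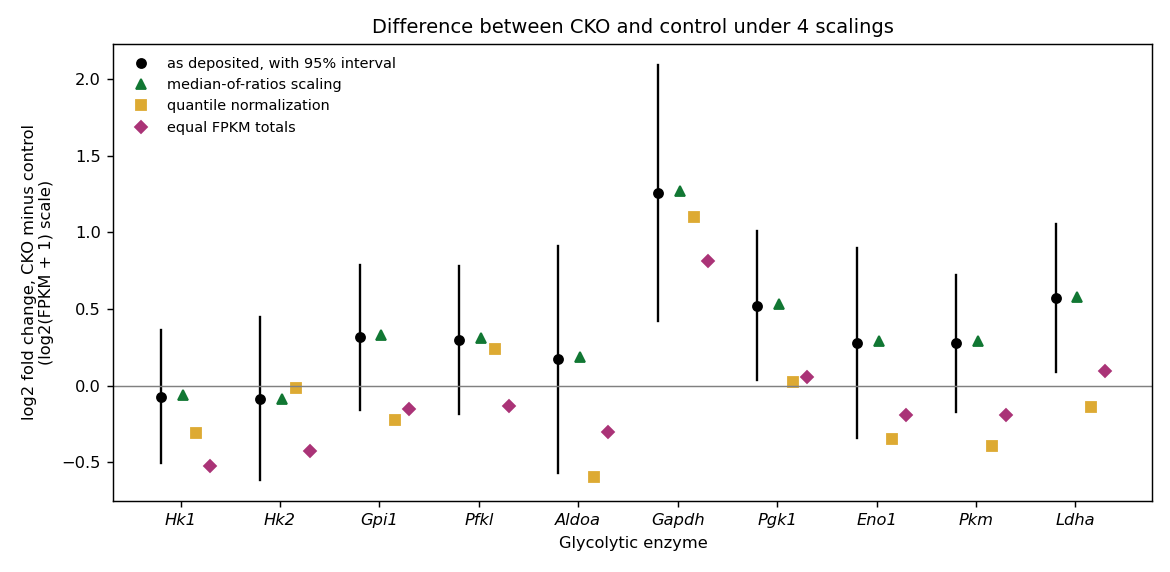
Log2 fold change of each enzyme, CKO minus control, on the log2(FPKM + 1) scale, as deposited (black, with the 95% interval) and after median-of-ratios scaling (green), quantile normalization (yellow) and rescaling to equal FPKM totals (purple). Gapdh stays between 0.82 and 1.27, whereas Aldoa, Eno1, Pkm and Gpi1 lie above 0 as deposited and below 0 with quantile normalization and with equal totals.

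Shares within an isozyme family do not change when a library is rescaled by 1 factor, and none of the 5 shares passed (exact two-sided permutation test over 70 assignments, smallest possible p 0.0286, Benjamini-Hochberg over the 5). A single differing share could reach an adjusted p of 0.143 at the lowest, so 1 alone could not pass. Eno1 made up 93.7%, 92.9%, 75.8% and 57.2% of enolase FPKM (Eno1, Eno2 and Eno3) in control replicates 1 to 4 and 65.6%, 65.2%, 92.3% and 53.9% in CKO replicates 1 to 4. The remainder was mostly Eno3, the muscle enolase, which ranged from 6.84 FPKM in control replicate 1 to 225 FPKM in CKO replicate 4. The 3 libraries with more than 90% Eno1 were those with the lowest muscle marker level, in either genotype. The share of Pfkl among phosphofructokinases ran from 21.5% to 40.6% in control and 22.8% to 41.8% in CKO, and was highest in those same 3 libraries. Pfkm, the muscle form, was at 10.7 to 25.2 FPKM in control and 12.2 to 40.9 FPKM in CKO, and the platelet form Pfkp at 3.37 to 5.99 and 4.46 to 6.70 FPKM. The mean difference between CKO and control was -10.6 percentage points for Eno1 (exact permutation p = 0.343, adjusted 0.943; -18.3 without CKO replicate 3, -18.2 without control replicate 4 and -5.51 without CKO replicate 4) and -2.44 for Pfkl (exact permutation p = 0.771, adjusted 0.943).

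Ldha held a stable majority over Ldhb, the heart-type subunit that favours lactate oxidation. Its share was 89.3 ± 2.15% in control and 89.2 ± 2.47% in CKO (SD, n = 4 each; exact permutation p = 0.943, adjusted 0.943). Ldhb was at 18.5, 23.2, 17.2 and 33.5 FPKM in control and 26.5, 33.4, 29.2 and 48.0 FPKM in CKO, so both subunits were higher on average in CKO with their ratio little moved. Hk2 made up 9.92 ± 2.84% of the hexokinase level in the control group, and the CKO share was 8.70 ± 2.82% (SD, n = 4; exact permutation p = 0.6, adjusted 0.943). Hk3, the hexokinase of granulocytes, was at 10.3, 7.495, 6.30 and 2.30 FPKM in control and 6.85, 12.8, 12.1 and 7.12 FPKM in CKO, more than Hk2 in 7 of 8 libraries. Aldoa made up 99.6% of aldolase FPKM in both groups, with Aldoc at 0.667 to 1.93 FPKM (exact permutation p = 0.914, adjusted 0.943).

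**Figure D4:**
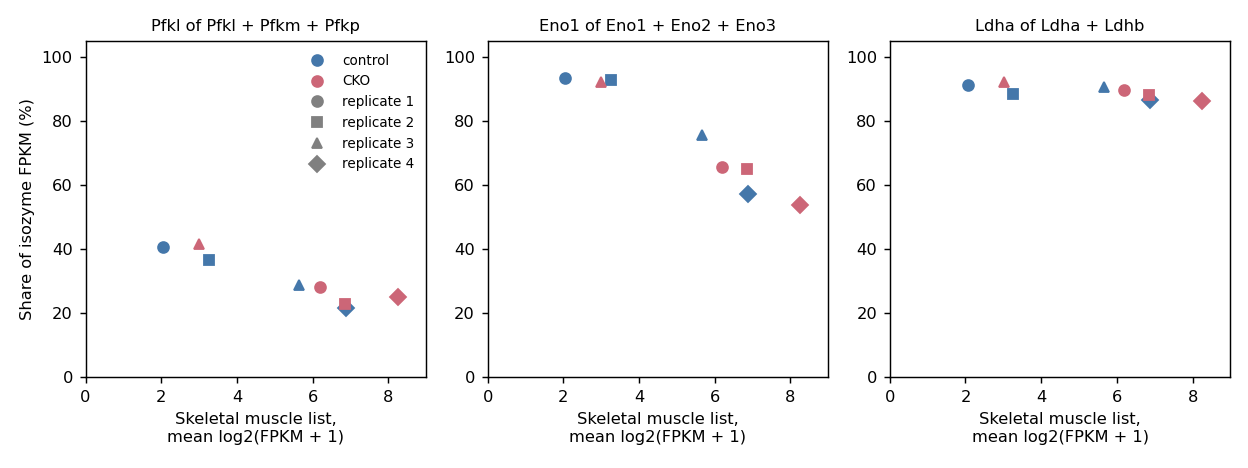
Share of Pfkl, Eno1 and Ldha in the FPKM of their isozyme family (percent) against the mean log2(FPKM + 1) of 12 skeletal muscle markers, for 4 control (blue) and 4 CKO (red) libraries. Eno1 goes from 93.7% in the library with the lowest muscle level to 53.9% in that with the highest, across both genotypes, while Ldha stays between 86.4% and 92.3%.

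Beyond the 10 enzymes, lists of the pathway and its neighbours were drawn up with earlier results of these data known. Of the other isozymes and steps of glycolysis, 11 of 18 were tested and 0 passed in limma, and their log2 fold changes had 0.56 as the median. At an unadjusted p under 0.05 there was 1, against 25.3% of all genes. The gene at p under 0.05 was Tpi1, which interconverts the triose phosphates. Tpi1 had 87.6, 77.1, 73.8 and 113 FPKM in control and 108, 145, 122 and 179 FPKM in CKO (log2 fold change 0.65, SE 0.23, limma adjusted p = 0.12). CKO replicate 1 was just under the highest control. Eno3 had a log2 fold change of 1.302 with an SE of 0.93.

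At an unadjusted p under 0.05, 3 of 10 tested transporters of glucose, lactate and pyruvate passed, against 25.3% of all genes. Of these, Bsg was higher and Slc2a1 lower, both named after their values were seen. At the adjusted threshold 1 transporter rose and 0 fell, against 3.88% of all genes higher and 0.651% lower. The transporter that rose was Mpc2, a subunit of the carrier that takes pyruvate into mitochondria. Mpc2 had 29.5, 25.2, 22.3 and 33.7 FPKM in control and 48.9, 48.1, 69.4 and 60.9 FPKM in CKO (log2 fold change 1.01, SE 0.21, limma adjusted p = 0.0388). Every CKO library was above every control, a separation with CKO higher that 12.7% of all tested genes showed. Of 8 pentose phosphate genes, which draw on glucose 6-phosphate, 1 rose and 0 fell. At an unadjusted p under 0.05 there were 4, against 25.3% of all genes. Besides the gene that rose, these were Rpia (log2 fold change 1.04), Tkt (0.71) and H6pd (-0.68), named after their values were seen. The gene that rose was Taldo1, transaldolase of the non-oxidative branch, at 112.3, 110, 80.8 and 85.9 FPKM in control and 161, 186, 199 and 273 FPKM in CKO (log2 fold change 1.05, SE 0.23, limma adjusted p = 0.0408). Of 19 tested genes of the hypoxia-inducible factor pathway and its other targets, 1 rose and 1 fell. The same 2 had an unadjusted p under 0.05, against 25.3% of all genes. Epas1, the HIF-2 alpha subunit prominent in endothelium, fell to 19.5 ± 6.06 FPKM in CKO from 38.1 ± 2.30 FPKM in control (SD over 4 libraries each). Its log2 fold change was -0.98 and its limma adjusted p 0.0455. Summed endothelial markers were also lower in CKO (70.9 to 129 FPKM) than in control (150 to 188 FPKM). The part of endothelial cells in the Epas1 level was not tested. Higd1a, a hypoxia-induced mitochondrial protein, rose to 19.6 ± 3.45 FPKM in CKO from 9.21 ± 3.01 FPKM in control, with a log2 fold change of 1.04 and a limma adjusted p of 0.0453.

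Each of these 4 calls ended without control replicate 2, 3 or 4 or CKO replicate 1, 2 or 3, where limma called 0 genes in all (2103 to 3234 at an unadjusted p under 0.05), and each ended with median-of-ratios scaling, equal FPKM totals, the length trend removed, and the Y-linked or marrow covariate. Over the fits that left out 1 library, the limma adjusted p ran from 0.0265 to 0.165 for Mpc2, 0.0264 to 0.174 for Taldo1, 0.0327 to 0.178 for Epas1 and 0.0258 to 0.179 for Higd1a. Quantile normalization also ended the calls of Mpc2, Taldo1 and Higd1a (limma adjusted p = 0.0712, 0.151 and 0.062). Leaving out the filter ended those of Epas1 and Higd1a (0.0502 each). For Mpc2, Taldo1, Epas1 and Higd1a in turn, the log2 fold changes without 1 library stayed near their size, at 0.91 to 1.11, 0.91 to 1.16, -1.14 to -0.84 and 0.92 to 1.22. With median-of-ratios scaling they were 1.02, 1.06, -0.96 and 1.05. With equal FPKM totals they were 0.55, 0.58, -1.43 and 0.60, and with quantile normalization 0.64, 0.46, -1.23 and 0.94. With the length trend removed that of Mpc2, a short transcript of 1025 bases, went from 1.01 to 0.30, and that of Taldo1 from 1.05 to 0.59.

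Regulators of glycolytic flux (14 tested), pyruvate dehydrogenase subunits (5) and gluconeogenic enzymes (5) had 0 genes past the threshold in limma. Each had 1 gene at an unadjusted p under 0.05 (Bpgm, Pdhb and Fbp1, the last named after its values were seen), against 25.3% of all genes. The medians were 0.04, 0.26 and 0.37. Bpgm, the red cell enzyme that diverts 1,3-bisphosphoglycerate to 2,3-bisphosphoglycerate, had 23.8, 21.8, 17.7 and 11.2 FPKM in control and 71.3, 42.5, 52.3 and 25.1 FPKM in CKO. Its groups did not overlap (log2 fold change 1.27, SE 0.33, limma adjusted p = 0.0554), a separation with CKO higher that 12.7% of all tested genes showed. Summed erythroid markers were also higher in every CKO library. CKO replicate 4, however, had the highest erythroid sum (70834 FPKM) and the lowest Bpgm of the CKO libraries. The part of red cells in its level was not tested. Pdk4, a kinase that shuts off pyruvate dehydrogenase, averaged 31.2 and 22.1 FPKM in control and CKO (adjusted p = 0.527 in limma). Pdhb averaged 46.6 and 73.0 FPKM and Pdha1, which encodes the partner subunit of the same enzyme, 41.2 and 43.3 FPKM (limma adjusted p = 0.0993 and 0.988). Pck2 averaged 21.7 and 23.9 FPKM and G6pc3 14.8 and 16.6 FPKM (limma adjusted p = 0.881 and 0.963).

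**Figure D5:**
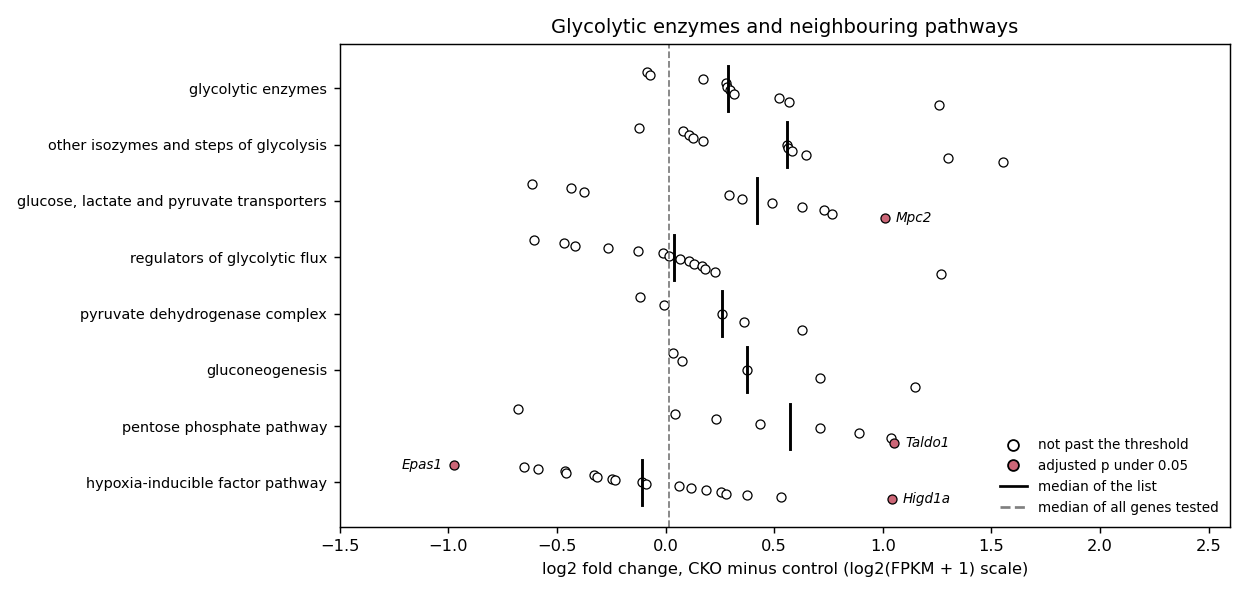
Log2 fold change, CKO minus control, of each tested gene in 8 lists, with filled points for an adjusted p under 0.05, a black line at the median of each list and a dashed line at the median of all genes tested (0.01). The 10 glycolytic enzymes hold no filled point and have a median of 0.29; Mpc2, Taldo1, Higd1a and Epas1 are the filled genes of the other lists.

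The enzymes did not share a single profile over the 8 libraries. After each was centred on its own mean of log2(FPKM + 1), their average went from -0.35 in control replicate 3 to 0.35 in CKO replicate 4. Pkm lay closest to that average, with a root mean square difference of 0.10, followed by Gpi1 and Ldha at 0.18 each. Gapdh (0.68), Hk2 (0.40) and Aldoa (0.37) lay farthest from it. Hk1 had its highest centred value in control replicate 1 (0.30), and Hk2 its lowest in CKO replicate 4 (-0.50), where Eno1 had its highest (0.91). Outside the 10, the protein-coding gene nearest to the average was Akr1a1, an aldehyde reductase, at 0.04, followed by Uqcc1 (0.07), Prelid1 (0.07), Ciao3 (0.08) and Rrp7a (0.09), as a description over 8 libraries.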

How the data were processed

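Per the file headers, the deposited table holds FPKM for 14457 genes in 8 libraries, with the p-value and log2 fold change of the authors' own comparison. Per the submitters' processing notes, the tools, listed without role or order, were DESeq2 1.20.0, featureCounts 1.5.0-p3, HISAT2 2.0.5, fastp and CASAVA 1.8, on genome GRCm38. The sources used here give no annotation, strand setting or handling of reads that fit several genes. Sequencing depth is unknown. Low FPKM values were searched for steps of whole reads over a range of assumed depths, with exon lengths from GENCODE M21. The lowest mean distance from a whole number was at least 0.215 per library, where 0.25 is chance at a single fixed depth. The lengths used by the authors are not given, so this search could not decide whether the values step. No counting interval is therefore given and no count model was run. Instead limma was used, as the design provided for FPKM.

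A gene was kept when 4 or more libraries reached 1 FPKM (12748; 1709 left out; all 10 enzymes kept). log2(FPKM + 1) was fitted with limma 3.58.1 (R 4.3.3, eBayes with trend, genotype only) and adjusted by Benjamini-Hochberg at 0.05. Fold changes on this scale understate low genes. Isozyme shares used an exact permutation test (scipy 1.17.1). Copies of the longest annotated coding sequence of each enzyme were found with blastn 2.17.0 in GENCODE M21 transcripts. Promoter sequences are from RefSeq. The enzymes and lists were chosen with earlier results of these data known. Named were the 10 enzymes, Slc26a2, isozymes, and per list up to 3 genes past the threshold or, with none, the 2 with the highest mean FPKM, and the 5 genes with the profile nearest to the enzymes' average; Bpgm, Tpi1, Eno3, Pdk4, Pdhb, Pdha1, Pck2 and G6pc3 entered by mean FPKM. Alternatives were other scalings, filters and pseudocount, length trend, replicate block, covariates and each library left out.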

Additional observations from a re-analysis of the deposited data

Results flagged for a closer look

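In 4 of 68 groups of 4 libraries, 1 library stood apart from the other 3 by more than Dixon's 95% critical value. Chance alone gives about 5% of groups. Gapdh was at 24.8 FPKM in control replicate 4, against 7.67 to 8.22 FPKM in the other controls. G6pc3 was at 31.8 FPKM in CKO replicate 4, where the remaining 3 lay at 9.6 to 13.4 FPKM. Epas1 was at 34.7 FPKM in control replicate 1, against 39.0 to 39.4 FPKM in the other controls. Slc26a2 was at 7.49 FPKM in control replicate 2, against 4.37 to 4.85 FPKM in the other controls.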

How the results depend on the processing

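Of 19 alternatives, the count of enzymes past the threshold stayed at 0 in 18 and was 1 without CKO replicate 4 (range 0 to 1 with a library left out). That one was Pgk1, whose log2 fold change ran from 0.44 to 0.64 with a library left out. The count of all genes past the threshold was 578, and became 381 with no filter, 358 with quantile normalization, 0 with median-of-ratios scaling, 0 with equal FPKM totals, 1 with the length trend removed, 0 with the Y-linked covariate, 1685 with the skeletal muscle covariate, 0 with the marrow covariate, and 0 to 1885 with a library left out. In the order of the zero counts by limma, 3397, 3934, 2202 and 883 genes had an unadjusted p under 0.05. The marrow level did not overlap between the groups (5.10 to 6.95 and 7.51 to 7.75 log2 units), so that covariate and genotype cannot be told apart.

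The same replicate number did not mark related libraries (deviations of same-numbered libraries correlated at -0.03, 0.23, -0.26 and 0.43), and a replicate block gave 274 genes and 0 of the 10 enzymes, with 3484 genes at an unadjusted p under 0.05; Mpc2, Taldo1, Epas1 and Higd1a lost their call there.

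The direction turned with quantile normalization for Gpi1 (-0.23), Aldoa (-0.59), Eno1 (-0.35), Pkm (-0.40) and Ldha (-0.14); with equal FPKM totals for Gpi1 (-0.15), Pfkl (-0.14), Aldoa (-0.30), Eno1 (-0.19) and Pkm (-0.19); with the length trend removed for Hk1 (0.16), Hk2 (0.26) and Aldoa (-0.18); and with the muscle covariate for Hk1 (0.031) and Aldoa (-0.16). With a library left out, Hk1 ran from -0.18 to 0.017, Hk2 from -0.23 to 0.067 and Aldoa from -0.033 to 0.42. With a library left out the Gapdh value ran from 1.09 to 1.64. The shares, CKO minus control in percentage points, ran from -2.21 to 0.14 for Hk2, -6.55 to 0.46 for Pfkl, -18.3 to -5.51 for Eno1, -0.049 to 0.059 for Aldoa and -1.14 to 0.81 for Ldha, and the logit of the Aldoa share turned to 0.0076. With sign flips within replicate numbers no share could pass, since the smallest p of 4 pairs is 0.125. Hk2 was not tested with the filter at 5 FPKM. Precision is limited by 4 libraries a group and an unknown depth.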

Other observations

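Eno1b, the coding copy of Eno1, was at 5.18 to 16.7 FPKM and made up 1.92% of the pair in CKO replicate 4 and 4.72% to 10.2% in the other libraries. Within the libraries without Y-linked expression, which include a single control, the log2 difference between CKO and control was 1.56 for Gapdh, 0.45 for Pgk1 and 0.47 for Ldha. Within those with it, which include a single CKO library, it was 1.37, 0.23 and 0.70. For Pfkl the values were -0.15 and 0.80. This split was chosen after seeing the data, and none of these values has a test. Slc2a1, the main glucose transporter of osteoblasts, chosen after its values were seen, was at 6.28, 5.20, 4.21 and 4.86 FPKM in control and 3.57, 3.93, 3.30 and 1.59 FPKM in CKO (log2 fold change -0.61, limma adjusted p = 0.148). Every CKO library was below every control, a separation that 6% of all tested genes showed.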
